A study of Mus musculus with 71 samples.

Results

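The 6 genes described here, Gzma, Gzmb, Gzmk, Prf1, Fasl, and Nkg7, encode parts of the killing machinery of cytotoxic lymphocytes. They are listed by name for what they are known to do, with no measured value in the rule, out of 24475 gene rows measured in bulk and 24495 rows measured in single γδ intraepithelial lymphocytes (IELs). Earlier results of these data were known when these genes were chosen. All 6 were found in both kinds of table and all 6 passed the filter on low counts in every bulk comparison.

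Cytotoxic lymphocytes store granzymes, serine proteases that start cell death, in secretory granules together with perforin, which opens pores in the membrane of the target cell. A second route needs no granule and runs through the surface ligand FasL, which triggers the death receptor Fas. IELs that carry a γδ T cell receptor (TCR) live between the epithelial cells of the gut and are known to hold granzymes ready without prior stimulation.

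The study asked how Btnl2, a butyrophilin-like gene of the gut epithelium, bears on γδ IELs in the different segments of the small intestine. γδ IELs were sorted as CD45-positive, TCRγδ-positive, TCRβ-negative cells from the duodenum, jejunum, and ileum of C57BL/6 mice that were either wild type (WT) or carried a germline null allele in which a LacZ cassette sits in frame with the Btnl2 start codon (Btnl2-KO). Both genotypes were untreated female littermates housed together, aged 10 weeks by the labels of the bulk libraries and 8 to 10 weeks by those of the single-cell libraries. The study's text gives 1 age for both kinds of library, slightly above that of either label. The bulk data were 22 libraries, with 4 WT libraries in each segment and 3 (duodenum), 4 (jejunum), and 3 (ileum) Btnl2-KO libraries, each made from a pool of a pair of mice, and the single-cell data were 6 libraries, 1 for each segment and genotype, made from part of the same sorted material. The study's methods read as if the segments came from the same pools of mice, the labels do not say which libraries would share a pool, and the tests between segments treated libraries as independent.

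Libraries held 13444958 to 30029485 counts, and bulk levels are given as CPM (the count of a gene scaled to a common library total) after scaling by the trimmed mean of M values. Btnl2 was at 2.47 to 9.89 CPM in the 12 WT libraries and at 0 to 0.123 CPM in the 10 KO libraries, so the genotype labels held. Among defining genes of the sorted cells, Cd3e was at 846 to 1923 CPM and Cd8a at 1451 to 2520 CPM in all 22, Cd4 was at most at 4.16 CPM, the NK cell gene Ncr1 at most at 2.38 CPM, and the myeloid gene Csf1r was at 0 in 11 libraries. Transcripts of 12 epithelial genes summed to 605 to 9054 CPM. By the median correlation of log2 CPM with the other libraries, 3 libraries stood apart from the rest, jejunal Btnl2-KO replicate 2 (0.879), ileal Btnl2-KO replicate 2 (0.914), and jejunal Btnl2-KO replicate 3 (0.933), against 0.942 or more in the other 19.

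The transcription factors T-bet and Eomes (T-box family) and Runx3 (Runx family) are known to act on granzyme and perforin genes in cytotoxic T cells. To show where short motifs of both families lie, the 250 bases before the RefSeq start sites of 4 granzyme and perforin genes are shown (build GRCm38.p6, read 5′ to 3′ on the strand of the gene), with matches to AGGTGT (T-box) or TGTGGT (Runx) on either strand in capitals.
Gzma (chr13:113100982-113101231, minus strand): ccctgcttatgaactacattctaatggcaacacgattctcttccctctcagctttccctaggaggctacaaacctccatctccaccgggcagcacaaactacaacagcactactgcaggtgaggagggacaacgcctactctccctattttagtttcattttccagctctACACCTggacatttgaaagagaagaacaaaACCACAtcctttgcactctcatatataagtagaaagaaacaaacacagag
Gzmb (chr14:56262335-56262584, minus strand): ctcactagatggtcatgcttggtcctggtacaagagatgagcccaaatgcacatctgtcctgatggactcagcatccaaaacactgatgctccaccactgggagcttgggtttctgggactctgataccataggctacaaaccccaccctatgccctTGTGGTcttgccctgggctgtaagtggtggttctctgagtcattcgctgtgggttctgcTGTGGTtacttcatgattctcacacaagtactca
Gzmk (chr13:113180966-113181215, minus strand): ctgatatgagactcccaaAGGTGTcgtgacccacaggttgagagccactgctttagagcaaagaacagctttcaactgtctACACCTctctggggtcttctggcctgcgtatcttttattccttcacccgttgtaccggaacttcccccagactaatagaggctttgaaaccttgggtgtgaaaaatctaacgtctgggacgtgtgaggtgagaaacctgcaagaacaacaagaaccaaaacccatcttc
Prf1 (chr10:61297586-61297835, plus strand): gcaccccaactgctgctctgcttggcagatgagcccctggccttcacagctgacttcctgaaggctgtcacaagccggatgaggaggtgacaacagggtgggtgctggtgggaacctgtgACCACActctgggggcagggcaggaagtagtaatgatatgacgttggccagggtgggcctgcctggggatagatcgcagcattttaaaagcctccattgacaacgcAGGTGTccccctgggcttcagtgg

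All 6 genes had a promoter in the RefSeq table. In windows from 250 bases before to 50 bases after the start, the T-box letters AGGTGT or their reverse complement were found in 4 of the 6 promoters (Gzma, Gzmk, Prf1, and Nkg7) and in 13.7% of 32851 promoters of the table. The Runx letters TGTGGT or their reverse complement were found in Gzma, Gzmb, Prf1, and Nkg7, also 4 of 6, and in 16.8% of all promoters. Gzma held its T-box and Runx letters 80 and 50 bases before the start, Gzmb held the Runx letters 93 and 34 bases before it, and no match overlapped another. Fasl held neither. The letters TATAAA were in 0 of 6 against 13.6% of all promoters, and CTTTGA, the core bound by Tcf factors, was in 1 of 6 (Gzmk) against 16.0%. Gzma (chr13:113093824-113100981) and Gzmk (chr13:113171630-113180965) are neighbours on the same chromosome in this build, whereas Gzmb lies at chr14:56258836-56262334, Prf1 at chr10:61297751-61304684, Fasl at chr1:161780691-161788495, and Nkg7 at chr7:43437138-43438246.

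Gzma and Gzmb were the most abundant of the 6 transcripts in bulk. Divided by transcript length, the median over 22 libraries was 20963 CPM per kb for Gzma, 5793 for Gzmb, 3773 for Nkg7, 91.0 for Fasl, 76.6 for Gzmk, and 39.6 for Prf1. Gzma exceeded Gzmb in 22 of 22 libraries on this scale, and Nkg7 exceeded Fasl and Gzmk exceeded Prf1 in 22 of 22. Gzmb exceeded Nkg7 in 18 libraries and Fasl exceeded Gzmk in 15, so the order of these neighbours was not the same in every library. Together the 6 genes took 2.4 to 7.45% of the library total after scaling by the trimmed mean of M values. Gzma alone took 1.5 to 5.97% of that scaled total. Of 7 other granzymes, Gzmc was at 4.22 to 17.4 CPM and Gzmm at 0.430 to 1.84 CPM, Gzmd, Gzmg, and Gzmn were at 0 in all 22 libraries, and Gzme and Gzmf were at 0 in 20 and 19.

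Gzma encodes granzyme A, a trypsin-like protease. In the duodenum it was at 24536, 20105, 20654, and 26154 CPM in WT libraries 1 to 4 and at 20363, 25087, and 17748 CPM in Btnl2-KO libraries 1 to 3. In the jejunum the WT libraries held 18959, 15507, 21657, and 16630 CPM and the KO libraries 27012, 20047, 59706, and 14998 CPM. Jejunal KO replicate 3 was the highest of all 22 libraries, and jejunal KO replicate 4 was the lowest. The ileal values were 23036, 17534, 21104, and 21140 CPM in WT and 26377, 35266, and 15570 CPM in KO libraries, where ileal KO replicate 2 was the second highest of all. WT and KO values overlapped in all 3 segments.

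Gzmb encodes granzyme B, which cleaves after aspartate and activates caspases. Its duodenal level was 5714, 6184, 8894, and 7504 CPM in WT and 6582, 7165, and 6615 CPM in KO libraries, so all KO values lay inside the WT range. In the jejunum it was 9670, 8142, 13834, and 8495 CPM in WT and 11536, 8761, 9579, and 6356 CPM in KO libraries. In the ileum it was 10212, 5025, 7618, and 10746 CPM in WT and 12941, 5839, and 8722 CPM in KO libraries, and again the groups overlapped. Of the 22 libraries, jejunal WT replicate 3 was the highest and ileal WT replicate 2 the lowest.

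Gzmk encodes granzyme K, a second trypsin-like granzyme. It was at 86.2, 111, 140, and 98.2 CPM in duodenal WT and at 89.4, 81.5, and 71.6 CPM in duodenal KO libraries, where only KO replicate 1 reached into the WT range. Jejunal WT libraries held 152, 101, 162, and 115 CPM and KO libraries 181, 118, 169, and 81.0 CPM. Ileal WT libraries held 102, 83.0, 97.5, and 98.6 CPM and KO libraries 132, 76.5, and 69.1 CPM. The jejunal and ileal KO libraries spread beyond the WT range at both ends.

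Prf1 encodes perforin, the pore former. In WT libraries the duodenal values were 83.1, 79.1, 104, and 69.6 CPM, the jejunal ones 170, 130, 153, and 119 CPM, and the ileal ones 120, 67.6, 62.4, and 104 CPM. All 4 jejunal WT libraries were higher than all 4 duodenal ones. In KO libraries it was at 91.4, 70.7, and 70.3 CPM (duodenum), 132, 151, 92.5, and 89.3 CPM (jejunum), and 176, 61.7, and 121 CPM (ileum), overlapping WT in each segment. Ileal KO replicates 1 and 2 were the highest and the lowest of all 22 libraries.

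Fasl encodes the death ligand of the route that needs no granule. In WT libraries the duodenal values were 134, 175, 220, and 139 CPM, the jejunal ones 227, 177, 250, and 204 CPM, and the ileal ones 156, 85.4, 128, and 148 CPM. Each jejunal WT library was above each ileal WT library. The KO libraries held 191, 184, and 170 CPM (duodenum), 220, 227, 228, and 166 CPM (jejunum), and 159, 88.8, and 178 CPM (ileum), and they overlapped the WT values in each segment.

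Nkg7 encodes a membrane protein of cytotoxic granules that takes part in their release. It was at 4035, 3235, 3165, and 4741 CPM in duodenal WT and 3163, 4243, and 2941 CPM in duodenal KO libraries. The jejunal values were 3034, 2619, 3340, and 2457 CPM in WT and 3703, 3309, 4684, and 2308 CPM in KO libraries. The ileal values were 4315, 3404, 3411, and 3217 CPM in WT and 4927, 5901, and 2630 CPM in KO libraries. Jejunal KO replicate 3 was the highest library of its segment, as for Gzma, and ileal KO replicate 2 was the highest of all 22.

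**Figure D1:**
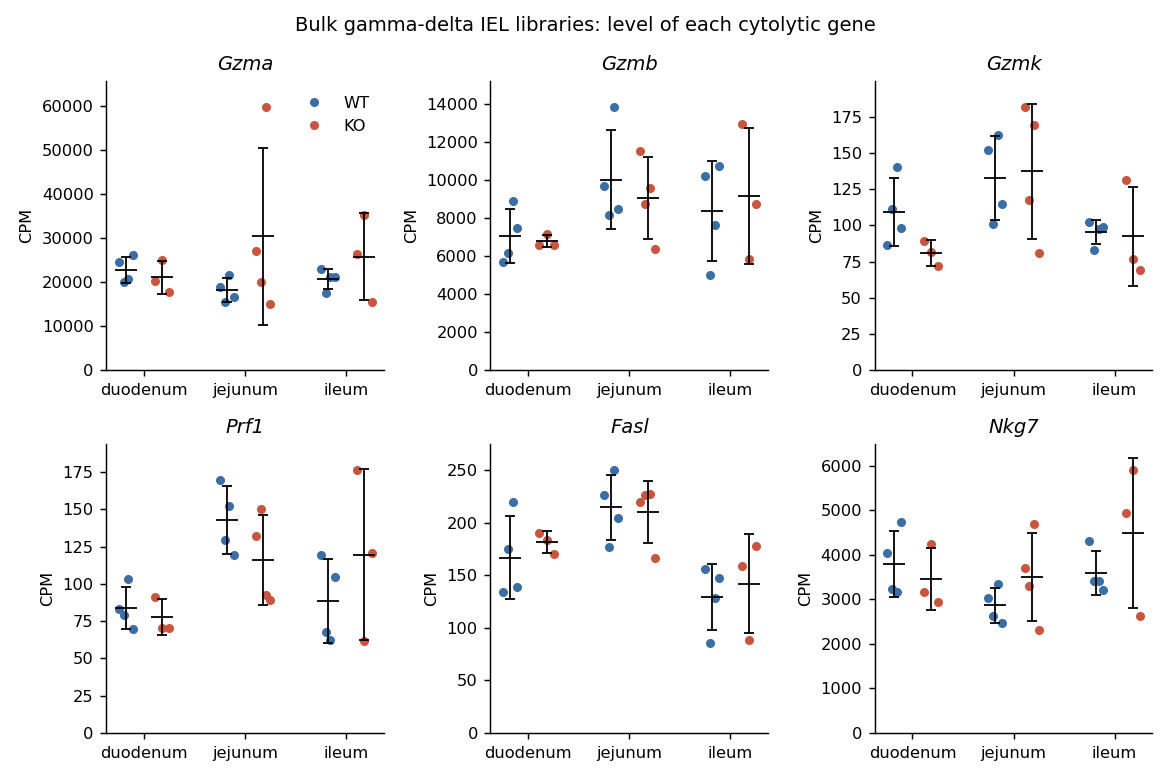
CPM of each gene (linear axis from 0) in every bulk library, by segment, with WT in blue and Btnl2-KO in red and with the mean and SD of each group in black. WT and KO points overlap for every gene in every segment, and jejunal KO replicate 3 stands out for Gzma at 59706 CPM.

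Loss of Btnl2 was followed by no called change in any of the 6 genes in any segment. A gene was called where edgeR's quasi-likelihood test gave a Benjamini-Hochberg false discovery rate (FDR) below 0.05 and the fold change exceeded 1.5. Duodenal libraries gave 0 of 6 called against 0.00789% of 12680 genes tested, jejunal libraries 0 of 6 against 0.00794% of 12594, and ileal libraries 0 of 6 against 0% of 12604. DESeq2 also called 0 of 6 in each, and over all genes it called 5, 0, and 227, of which 225 were lower in the ileal KO libraries. In the ileum edgeR did not call the targeted gene Btnl2 either (edgeR FDR 0.263). Likewise 0 of 6 had WT and KO values that did not overlap, against 3.01% (duodenum), 3.32% (jejunum), and 6.89% (ileum) of all genes. At an unadjusted p below 0.05 the test found 1, 0, and 0 of the 6 genes, against 263, 804, and 1108 of all genes.

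That 1 gene was Gzmk in the duodenum, at 80.8 ± 8.92 CPM in KO (SD, n = 3) and 109 ± 23.3 CPM in WT (SD, n = 4). Its log2 fold change was -0.43 ± 0.18 (SE) with an unadjusted p of 0.0329 and an FDR of 0.997 by edgeR. Jejunal libraries gave 0.10 ± 0.27 and ileal libraries -0.03 ± 0.24 for the same gene. Fold changes of the other duodenal members were small, from -0.13 ± 0.21 for Nkg7 to 0.12 ± 0.18 for Fasl, each at 0.997 in edgeR's FDR.

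In the jejunum the log2 fold change of Gzma was 0.80 ± 0.42 (SE, edgeR FDR 0.583), with a 95% interval from -0.15 to 1.75. It rested on jejunal KO replicate 3 and was 0.21 without that library and 0.24 without the 3 libraries that stood apart. Replicate 3 also had the highest summed CPM of pan-T-cell genes of its group, 12682 against a median of 8484, and Nkg7 was at 4684 CPM in it. The part of these features in the Gzma value was not tested. Jejunal Prf1 was at -0.26 ± 0.19 and Gzmb at -0.10 ± 0.24, with edgeR FDRs of 0.627 and 0.899.

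In the ileum all members but Gzmk had a positive log2 fold change, from 0.14 ± 0.38 for Gzmb to 0.45 ± 0.34 for Prf1, where the median of all 12604 genes was 0.06. None passed the test (edgeR FDR of 0.698 or more). Epithelial transcripts summed to 1035 to 3600 CPM in these KO libraries and 3509 to 9054 CPM in the WT libraries, and with their level as a covariate Gzma was at -0.36 and Nkg7 at -0.31. The intervals were wide, from -0.32 to 1.21 for Prf1 and from -0.46 to 1.15 for Gzma, and those of Gzma, Gzmb, Prf1, Fasl, and Nkg7 each included a 1.5-fold increase. In bulk libraries fewer cells of a type and less RNA per cell cannot be told apart, here and in all comparisons that follow.

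Between segments of WT mice, Prf1 and Fasl were called, at shares of the 6 genes close to those of all genes. Prf1 was higher in the jejunum (143 ± 22.8 CPM, SD, n = 4) than in the duodenum (83.8 ± 14.3 CPM, SD, n = 4), by 0.75 ± 0.15 (SE) on the log2 scale with an edgeR FDR of 0.00557, and was 1 of 6 genes called against 23.3% of 12629 genes tested. It was also 1 of 6 without overlap, against 35.1% of all genes. In the fit of all 22 libraries the value was 0.75 and the call was lost (edgeR FDR 0.0505). From the jejunum to the ileum (88.5 ± 27.9 CPM, SD, n = 4) Prf1 fell by 0.68 ± 0.22 on the log2 scale (edgeR FDR 0.0350). Fasl fell over the same step by 0.72 ± 0.19 (edgeR FDR 0.0162), from 215 ± 31.2 CPM (SD, n = 4) to 129 ± 31.6 CPM (SD, n = 4).

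With each library's dependence of level on transcript length as a covariate, Prf1 kept its sign in the jejunum against the duodenum. In the ileum against the jejunum, Prf1 and Fasl then both had the opposite sign. Without that covariate, Prf1 and Fasl were 2 of 6 genes called in the ileum against the jejunum, where 21.7% of 12643 genes were called. Fasl was 1 of 6 without overlap, against 32.9%. Gzmk, at -0.46 ± 0.16, had an edgeR FDR of 0.0497 and did not reach the 1.5-fold minimum. The ileum and duodenum gave 0 of 6 called against 2.16% of 12535 genes and 0 of 6 without overlap against 6.1%, and none of the 6 was at an unadjusted p below 0.05. These 3 comparisons share libraries, so that the jejunal values enter both calls of Prf1. The Prf1 call of the ileum against the jejunum was lost without any 1 of 4 libraries (ileal WT replicates 2 and 3, jejunal WT replicates 1 and 3), with edgeR FDRs of 0.0804 to 0.0985, and Fasl was under the fold minimum without ileal WT replicate 2 (-0.56, edgeR FDR 0.0208). Epithelial transcripts summed to 3509 to 9054 CPM in the ileal and 2038 to 5578 CPM in the jejunal WT libraries, and with their level as a covariate neither Prf1 (-0.32, edgeR FDR 0.190) nor Fasl (-0.37, edgeR FDR 0.0871) was called, while Nkg7 was (0.59, edgeR FDR 0.0150).

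Without a covariate the granzymes and Nkg7 were not called between WT segments. In the jejunum against the duodenum, Gzmb was at 0.49 ± 0.21 (edgeR FDR 0.0895) and Nkg7 at -0.42 ± 0.17 (edgeR FDR 0.0779), both with an unadjusted p below 0.05, and Gzma was at -0.35 ± 0.16 (edgeR FDR 0.118). Gzmb was the second gene called in this comparison when libraries were scaled to pan-T-cell genes (0.67, edgeR FDR 0.0244) and when duodenal WT replicate 3 was left out (0.62, edgeR FDR 0.0347). Scaling to pan-T-cell genes also moved the calls over all genes from 1330 higher and 1607 lower to 2193 higher and 843 lower. In the ileum against the jejunum, Gzma was at 0.20 ± 0.19, Gzmb at -0.25 ± 0.28, and Nkg7 at 0.34 ± 0.17 (edgeR FDR 0.151).

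**Figure D2:**
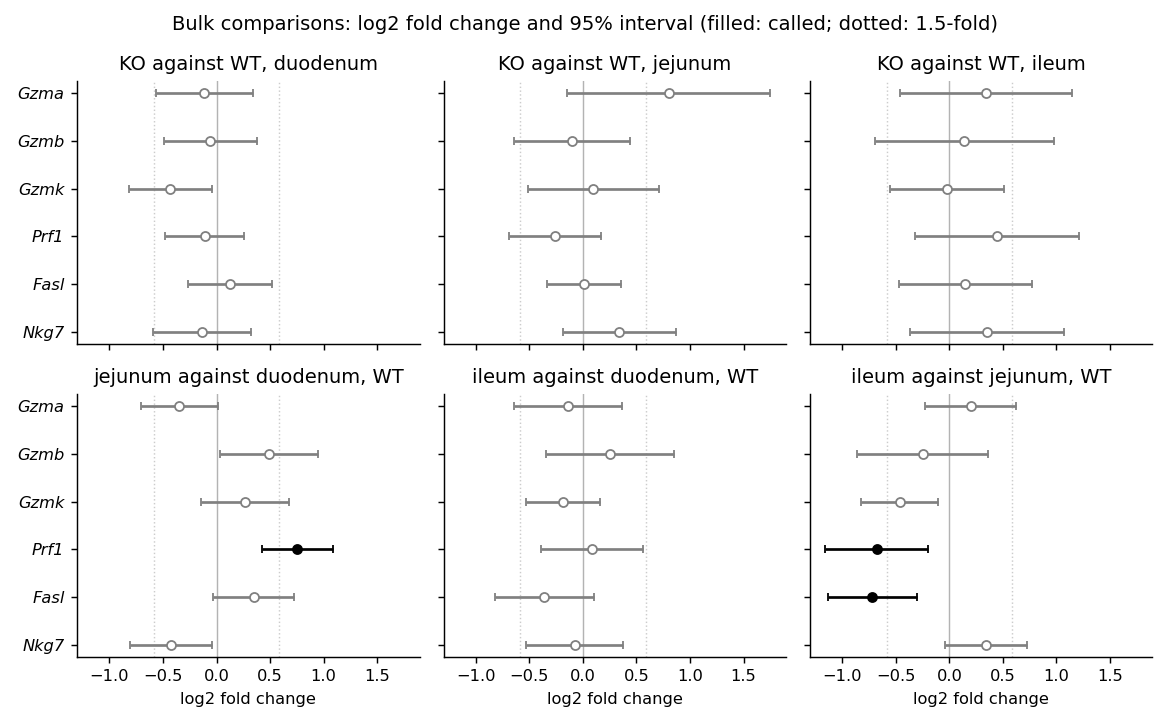
Log2 fold change of each gene with its 95% interval in 6 bulk comparisons, with filled black points for genes called and dotted lines at a 1.5-fold change. The filled points are Prf1 in the WT jejunum against duodenum (0.75) and Prf1 and Fasl in the WT ileum against jejunum (-0.68 and -0.72).

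The jejunal WT libraries also differed from the others in how the level of all genes depended on transcript length. The slope of log2 CPM on log2 transcript length over 10136 genes was 0.08 to 0.21 in jejunal WT libraries, -0.14 to 0.01 in duodenal WT libraries, and -0.14 to -0.06 in ileal WT libraries. Genes called higher in the jejunum than in the duodenum had a median transcript of 3880 nt, and those called lower 1487.5 nt, where the median of all genes was 3060 nt. Prf1 (2474 nt) and Fasl (1937 nt) are the longest of the 6 transcripts, with Gzmb at 1436 nt, Gzmk at 1304 nt, Gzma at 996 nt, and Nkg7 at 881 nt. With the slope as a covariate, 0 of 6 genes were called in either comparison, and Prf1 was at 0.21 in the jejunum against the duodenum while Prf1 and Fasl were at 0.61 and 0.64, with the opposite sign, in the ileum against the jejunum. Since the slopes of jejunal WT libraries did not overlap those of the other WT segments, segment and slope cannot be told apart in these libraries.

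**Figure D3:**
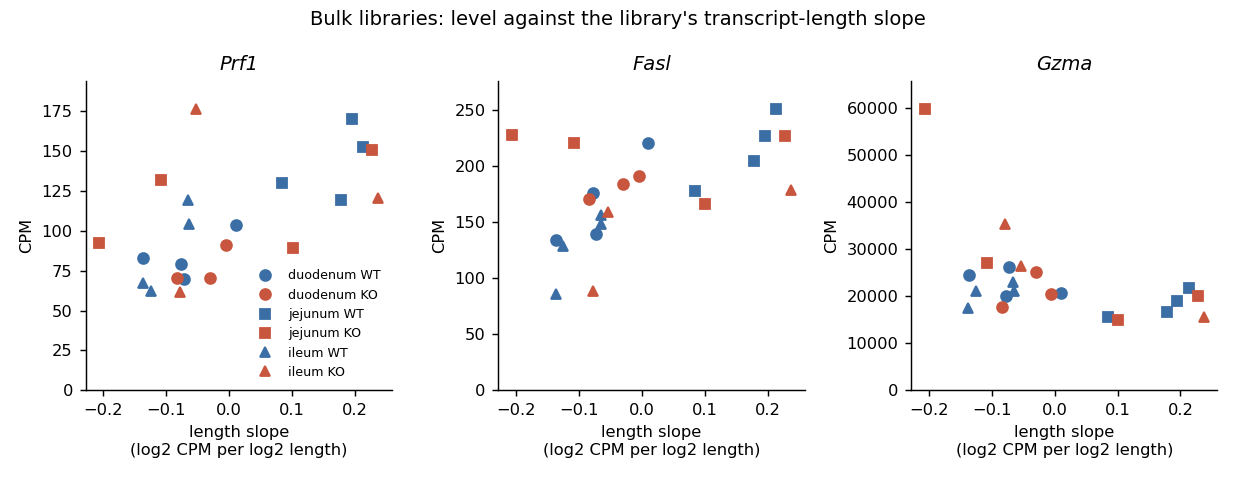
CPM of Prf1, Fasl, and Gzma (vertical axes) against the slope of each library's log2 CPM on log2 transcript length (horizontal axes) in the 22 bulk libraries, by segment (shape) and genotype (colour). The jejunal WT libraries sit at slopes of 0.08 to 0.21, right of all other WT libraries, and jejunal KO replicate 3 sits at -0.21 with the highest Gzma level.

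Within Btnl2-KO mice no member was called between segments. The jejunum against the duodenum gave 0 of 6 against 0% of 12711 genes, the ileum against the duodenum 0 of 6 against 0.505% of 12477, and the ileum against the jejunum 0 of 6 against 0% of 12579, and DESeq2 called 0 of 6 in each. No member had groups without overlap, against 13.7, 15.9, and 3.13% of all genes. Gzmk and Prf1 had an unadjusted p below 0.05 in the jejunum against the duodenum (2 of 6, where 1323 of all genes did), and 0 of 6 did in the others. The effect of genotype was not found to differ between segments either: the interaction called 0 of 6 members against 0% of 13360 genes for the jejunum and 0 of 6 against 0% for the ileum, each relative to the duodenum, with 0 of 6 at an unadjusted p below 0.05 and 0 of 6 by DESeq2.

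Of the genes around these 6, a list of 17 genes of granule maturation and release had 15 tested in the WT jejunum against duodenum, of which 2 were called higher and 1 lower (median 0.42, all genes 0.01), a share close to the 23.3% of all genes. Ctsc, the protease that activates granzymes, rose by 0.81 ± 0.20 (SE, edgeR FDR 0.0113) and Stx11, a fusion protein of granule release, by 0.64 ± 0.19 (FDR 0.0230), while Vamp8, a vesicle fusion protein, fell by 1.01 ± 0.17 (FDR 0.00418). In the ileum against the jejunum 2 of 16 were called higher (Vamp8 at 0.71 and the low-count Syt7 at 2.53) and 4 lower (Ap3b1 at -0.59, Ctsc at -0.70, Stx11 at -0.71, and Unc13d, which primes granules for release, at -0.69), with a median of -0.25 where that of all genes was 0.00385 and 21.7% of all genes were called. The libraries behind these calls are those whose length slopes differed, and Ctsc and Stx11 changed sign in both comparisons with the slope as a covariate.

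A list of 16 regulators of cytolytic genes, 15 of them tested, held genes called in both directions in the WT jejunum against the duodenum. Prdm1, which encodes the effector regulator Blimp-1, rose by 0.69 ± 0.17, and Stat4 and Stat5b, which carry cytokine signals, by 0.69 ± 0.17 and 0.62 ± 0.13, while Hopx and Ikzf2 fell by 0.67 ± 0.10 and 0.66 ± 0.20. In the ileum against the jejunum 7 of 15 were called lower and 0 higher, among them Tbx21 (T-bet) at -0.61 ± 0.17, Prdm1 at -0.88 ± 0.25, the IL-15 receptor chain Il2rb at -0.96 ± 0.33, Ahr at -0.76 ± 0.15, Stat4 at -0.67, Stat5a at -0.59, and Stat5b at -0.64, where 1379 of all 12643 genes were called lower. All 7 had the opposite sign with the slope as a covariate, as had Prdm1, Stat4, and Stat5b in the jejunum against the duodenum. Of 10 other death ligands and receptors, Tnfsf10 (TRAIL) rose by 0.66 ± 0.12 and Ltb fell by 0.74 ± 0.17 in the jejunum against the duodenum, and Tnfsf10 fell by 0.74 ± 0.14 in the ileum against the jejunum. Of 4 granzyme and protease inhibitors tested, Serpinb9, the inhibitor of granzyme B, fell by 0.67 ± 0.11 and Serpinb6a rose by 0.73 ± 0.12 in the ileum against the jejunum, while in the jejunum against the duodenum Serpinb6a was at -0.44 ± 0.14, under the fold minimum. Tnfsf10 also had the opposite sign with the slope as a covariate in the ileum against the jejunum. In the WT single-cell libraries (duodenum, jejunum, ileum) Tnfsf10 was at 124, 119, and 119 CPM. Serpinb9 was at 38.2, 34.9, and 33.6 CPM there, so neither showed differences of the bulk size.

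No gene of the 5 lists was called in Btnl2-KO against WT libraries or in the WT ileum against the duodenum. The members of each list with the largest differences in the duodenum were Gzmc (-0.21), Lyst (0.32), Serpinb6b (-0.15), Tnf (-0.52), and Eomes (-0.79), all at an edgeR FDR of 0.997. In the jejunum they were Gzmc (-0.05), Vamp8 (0.83), Serpinb6b (0.60), Ltb (0.64), and Prdm1 (-0.81), at edgeR FDRs of 0.583 to 0.970. In the ileum they were Gzmm (0.93), Syt7 (-1.06), Serpinb6a (-0.63), Tnfrsf10b (-0.84), and Il2rb (0.71), at 0.441 to 0.626. In the WT ileum against the duodenum they were Gzmc (-0.53), Syt7 (1.92), Serpina3g (-0.34), Tnfrsf10b (0.59), and Il2rb (-0.38), at 0.386 to 0.775. Other granzymes were not called in any comparison, with Gzmc at -0.55 ± 0.23 in the WT jejunum against the duodenum and Gzmm at -0.52 ± 0.43 in the WT ileum against the jejunum.

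In single cells, 23570 of 23994 barcodes were kept, those with 500 or more genes and no more than 10% of UMIs (unique molecular identifiers) from mitochondria. To compare cells at 1 depth, 21975 of them were thinned to 3000 UMIs. Libraries shared 19 to 31 barcodes pairwise, at most 0.821% of the smaller library. A Cd3 gene was found in 99.6% or more of the kept cells of every library, and LacZ UMIs were found in 15, 8, and 18 cells of the KO libraries and in 0 WT cells. As a guide to RNA outside the cells, 31 barcodes were used with 3 or more epithelial genes and no CD3 or TCR constant-chain UMI. That choice favours barcodes with little T cell RNA. Gzma UMIs were in 29.0% of them (10 UMIs in all), Gzmb in 9.68%, Nkg7 in 3.23%, and Gzmk, Prf1, and Fasl in 0. Their median depth was 29837 UMIs against 4877 to 5468 in the IEL libraries. With 1 library for each segment and genotype there was no replicate within a group, no test was made, and the intervals below cover counting error only, exact Poisson for levels and exact binomial for shares.

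Most γδ IELs held very large amounts of Gzma. It took 3.13 to 3.46% of all UMIs in the 6 libraries, and after thinning 74.3 to 80.8% of cells held a Gzma UMI, with a median of 117 to 142 UMIs of 3000 in those cells. Its distribution had 2 separate parts. In the duodenal WT library 20.1% of cells had no Gzma UMI, 2.07% had 1 to 4, 0.942% had 5 to 19, and 76.9% had 20 or more (24.0% with 20 to 99 and 52.9% with 100 or more). The other libraries were alike, with 19.2 to 25.7% at 0 and 0.516 to 0.776% at 5 to 19 UMIs. Gzmb was found in 71.3 to 78.4% of thinned cells at a median of 19 to 23 UMIs in those cells, and Nkg7 in 98.3 to 98.6% at a median of 7 or 8.

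Gzmk, Prf1, and Fasl were near the limit of detection in single cells. Before thinning Gzmk was found in 31.6 to 41.4%, Prf1 in 23.2 to 28.7%, and Fasl in 37.3 to 48.1% of kept cells, and after thinning in 23.5 to 33.2%, 15.5 to 18.7%, and 24.5 to 32.8%, mostly as 1 or 2 UMIs. The epithelial barcodes held 0 UMIs of each. They were chosen for having no CD3 or TCR constant-chain UMI, so they cannot show how far these shares lay above background.

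Gzmk was lower in each Btnl2-KO library than in the WT library of its segment. It was at 221 CPM of summed UMIs (95% interval 215 to 227) in the duodenal WT library and 169 (163 to 174) in the KO library, a fold of 0.763 (0.731 to 0.798). The jejunal libraries held 215 (208 to 221) and 167 CPM (161 to 172), a fold of 0.776 (0.741 to 0.812), and the ileal libraries 190 (184 to 196) and 143 CPM (139 to 148), a fold of 0.754 (0.722 to 0.788). Shares of thinned cells with Gzmk went the same way, 33.2% against 26.0%, 31.3% against 25.9%, and 28.6% against 23.5%. The bulk folds of Gzmk were 0.742 (duodenum), 1.07 (jejunum), and 0.982 (ileum), and the single-cell libraries contain part of the same sorted samples, so the 2 sets are not independent. The study's methods also read as if the single-cell libraries of a genotype came from the same mice in every segment. If so, the segments are not independent repeats of the genotype difference.

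The other members differed less by genotype or not in 1 direction. Gzmb was at folds of 0.963, 0.808, and 0.885 (KO over WT in the duodenum, jejunum, and ileum), which in the jejunum were 5827 against 7209 CPM. Prf1 was at 0.939, 0.895, and 0.863, with an interval that includes 1 in the duodenum (0.866 to 1.02), and Fasl at 0.996, 0.897, and 0.960, with intervals that include 1 in the duodenum and ileum. Gzma was at 1.04, 0.937, and 1.02 and Nkg7 at 1.01, 0.980, and 1.01. How much such folds vary between libraries of 1 group was not measured in single cells.

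Along the intestine, Fasl fell in single-cell level from duodenum to ileum in both genotypes, from 138 CPM (133 to 143) through 123 to 101 CPM (96.6 to 105) in WT and from 137 through 110 to 96.9 CPM in KO libraries. The fold of ileum over duodenum was 0.731 (0.691 to 0.773) in WT and 0.705 (0.669 to 0.743) in KO libraries. Gzma, Gzmb, Prf1, and Nkg7, 4 of 6 members, had a higher level in the ileum than in the duodenum in both genotypes. Folds ran from 1.06 for Prf1 in KO to 1.18 for Gzmb in WT libraries, although the interval of Prf1 in KO libraries includes 1 (0.985 to 1.15). After thinning 3 of 6 had a higher level in both. The share of thinned cells with Gzma differed by -3.90 percentage points in WT and -5.70 in KO libraries (ileum minus duodenum). For Gzmb it was -4.31 and -6.15, for Nkg7 -0.181 and -0.102, and for Prf1 2.45 and 0.116. In WT bulk libraries Gzma (-0.14) and Nkg7 (-0.08) had the opposite sign, Gzmb (0.25) and Prf1 (0.08) the same, and none was called. In KO bulk libraries all were positive, from 0.32 for Gzma to 0.63 for Prf1. For the genes called in bulk, Prf1 in WT was at a single-cell fold of 1.15 (1.07 to 1.25) in the jejunum over the duodenum and of 1.0 (0.929 to 1.08) in the ileum over the jejunum, where the bulk folds were 1.69 and 0.63. Fasl in the WT ileum over the jejunum was at 0.821 (0.774 to 0.871) in single cells and 0.608 in bulk. From the duodenum to the jejunum in WT, where Fasl was not called, its fold was 0.891 in single cells and 1.27 in bulk, in opposite directions.

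**Figure D4:**
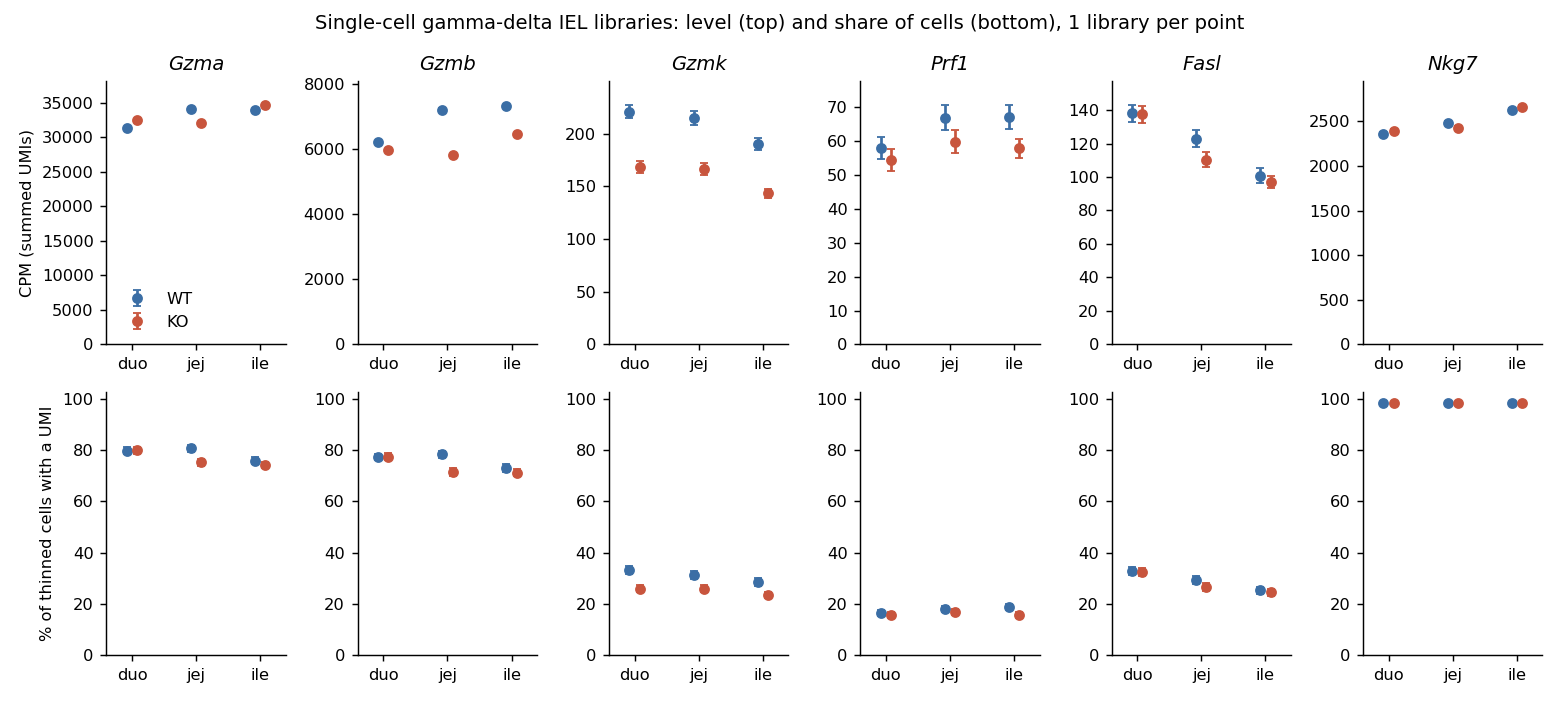
Level of each gene in CPM of summed UMIs (top, linear axes from 0) and share of cells thinned to 3000 UMIs that hold a UMI of the gene (bottom, in percent) in the 6 single-cell libraries, with WT in blue and Btnl2-KO in red and 95% counting intervals as bars. Gzmk lies lower in the KO than in the WT library of every segment (169 against 221, 167 against 215, and 143 against 190 CPM), and Fasl falls from duodenum to ileum in both genotypes.

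The 6 genes were positively correlated between cells, strongly for Gzma and Gzmb and weakly among the sparse genes. Between thinned cells all 15 pairs had a positive Pearson correlation of log values in all 6 libraries, which is given as a description with 3307 to 4468 cells of 1 library behind each value. Gzma and Gzmb gave the closest pair, with r of 0.871 to 0.892, and of the cells with Gzma 94.4 to 96.3% also held Gzmb, against 1.85 to 5.25% of the cells without Gzma. Nkg7 followed with r of 0.494 to 0.551 to Gzma and 0.455 to 0.507 to Gzmb.

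Gzmk, Prf1, and Fasl, which are sparse, correlated with Gzma at 0.264 to 0.333, 0.178 to 0.274, and 0.213 to 0.275. In terms of cells, Gzmk was found in 31.4 to 41.3% of cells with Gzma and 0.157 to 0.803% of cells without it, Prf1 in 18.5 to 24.2% against 1.43 to 3.30%, and Fasl in 30.8 to 37.7% against 4.89 to 13.8%. Among themselves these genes had low r, lowest for Prf1 and Fasl (0.031 to 0.099, odds ratios of 1.18 to 1.68). Odds ratios were 1.68 to 2.12 for Gzmk and Prf1 and 1.45 to 1.85 for Gzmk and Fasl. In counts of 1 or 2 UMIs such low r cannot show whether the genes are related. For scale, Gzma correlated with Actb at 0.098 to 0.123, with Cd3e at 0.191 to 0.318, and with Rplp0, a ribosomal gene, at -0.523 to -0.406, and it was nearly unrelated to the UMIs of the cell before thinning (-0.017 to 0.085). All values of a cell share its fixed total, of which Gzma takes a few percent.

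**Figure D5:**
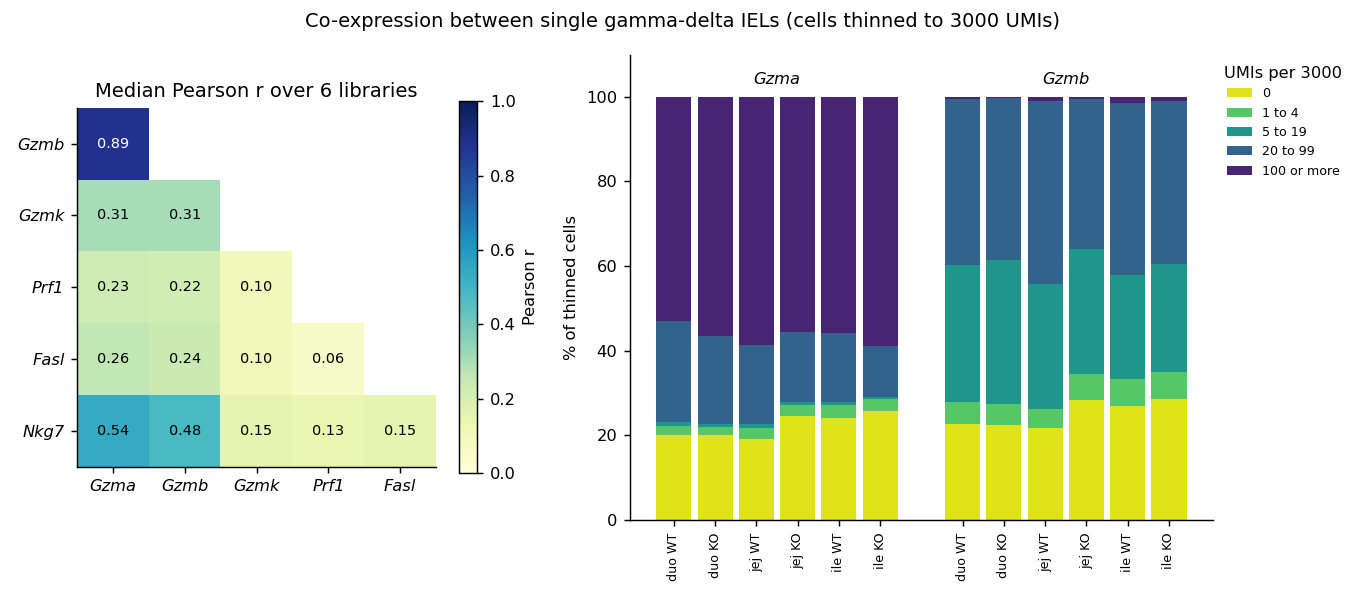
Left, median Pearson r over the 6 single-cell libraries for each of the 15 pairs (log values, cells thinned to 3000 UMIs, colour scale from 0 to 1). Right, share of thinned cells in percent by their number of Gzma or Gzmb UMIs in each library, where Gzma has 19.2 to 25.7% of cells at 0 and few cells between 5 and 19 UMIs.

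Cells with both Gzma and Gzmb made up 76.6% (95% interval 75.2 to 78.0) of thinned cells in the duodenal WT library and 76.9, 77.8, 71.2, 71.8, and 70.4% in the duodenal KO, jejunal WT, jejunal KO, ileal WT, and ileal KO libraries. Cells with neither were 19.3, 19.4, 18.6, 24.2, 22.7, and 24.7%, and cells with Gzma alone (3.02 to 4.18%) or Gzmb alone (0.455 to 1.26%) were few. The share with neither was close in the duodenal WT and KO libraries and higher in the jejunal KO than in the jejunal WT library, by more than their counting intervals (22.8 to 25.6% against 17.3 to 20%). Of the 6 genes, all were found in 1.84 to 2.84% of thinned cells and none in 0.915 to 1.35%.

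The cells with both granzymes differed from those with neither in the other members. The median fold over the 6 libraries was 124 for Gzmk (251 against 1.84 CPM), 12 for Prf1, 5.95 for Fasl, and 2.0 for Nkg7, and each was higher in 6 of 6 libraries. Prdm1 was at 39.0 against 0.503 CPM, Runx1 at 34.9 against 5.5 CPM, and Il2rb at 568 against 172 CPM. In the other direction, Tcf7, the transcription factor of naive and memory T cells, was at 7.43 against 275 CPM, a median fold of 0.0273, and the receptor gene Cd160, named after its values were seen, had a median fold of 0.307. Runx3 was alike in both, at 285 against 295 CPM, and Tbx21 was at 86.7 against 51.6 CPM. Of the same list of regulators, Ahr (37.8 against 84.9 CPM), Stat5a (22.9 against 35.2 CPM), and Stat5b (48.2 against 69.3 CPM) were lower in 6 of 6 libraries.

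Cells with a Gzmk UMI were compared with cells without one. Gzma was 1.43 times and Gzmb 1.60 times as high in them, Prf1 1.66 times, and Fasl 1.45 times (medians over libraries, each higher in 6 of 6). The group without Gzmk also held most of the cells without Gzma. In the duodenal WT library 741 cells without Gzmk and 6 cells with Gzmk lacked Gzma, while 1742 and 1226 held it. How much of these folds comes from that mix of cells was not tested. The actin-severing gene Scin was at 135 against 45.1 CPM, the IL-7 receptor gene Il7r at 55.1 against 25.9 CPM, and Cd8b1, named after its values were seen, at 39.3 against 17.3 CPM. Tcf7, Cd27, and Ly6c2, which were listed with Scin and Il7r as genes of Gzmk cells, went the other way. Tcf7 was at 8.74 against 97.5 CPM, Cd27 at 97.3 against 138 CPM, and Ly6c2 at 0 against 1.4 CPM, each lower in 6 of 6. Il2rb (365 against 500.1 CPM) and Cd160 (427 against 695 CPM) were also lower in 6 of 6.

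By correlation between thinned cells, among 5575 genes found in at least 10% of cells of each library, the genes most like Gzma were Gzmb (median r 0.887), the chemokine Ccl5 (0.835), and Nkg7 (0.536). For Gzmb they were Gzma, Ccl5 (0.735), and Nkg7 (0.482), and for Nkg7 they were Gzma, Ccl5 (0.497), and Gzmb. Gzmk, Prf1, and Fasl each had Gzma, Gzmb, and Ccl5 as the 3 most alike, with median r of 0.283 to 0.307, 0.194 to 0.230, and 0.230 to 0.259. The gene most opposed to Gzma was Tcf7 (-0.590).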

How the data were processed

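Bulk RNA was measured in 22 γδ IEL libraries and 5′ single-cell RNA in 6, of 71 samples in the series; the other samples and 1 column that matched no sample were not used here. The bulk files held expected counts per gene that the authors deposited, estimated with RSEM against a mouse genome (GRCm38 per the submitters' notes), and 4.92% of values were not whole. The single-cell files held UMI counts that the authors deposited from Cell Ranger. Of 24475 gene identifiers, 100 had no name in the reference used and held 0.253 to 3.47% of counts.

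Expected counts were rounded and tested with edgeR 4.0.16 (quasi-likelihood, TMM scaling, R 4.3.3, limma 3.58.1) between 2 groups at a time, and interactions over all 22 libraries. A gene was tested if enough libraries to fill the smaller group held 10 or more counts of it. Groups came from the labels. Each library pooled a pair of mice and replicate numbers follow accession order, so p-values measure the spread between pools, and libraries of different segments, which may share mice, were treated as independent. Replicates differed beyond sampling noise in all 30 pairs. CPM scale the counts of a library to a common total, after TMM scaling in bulk and over the summed UMIs in single cells. Cells with 500 or more genes and no more than 10% of UMIs from mitochondria were kept and thinned to 3000 UMIs (Python 3.11.15, numpy 2.4.6, pandas 2.3.3, scipy 1.17.1). No doublet caller was run; cells with the most UMIs were left out instead as an alternative. Poisson and Clopper-Pearson intervals (95%) cover counting error only. Transcript lengths are those of the longest protein-coding transcript of each gene. Scripts were tested on simulated data.

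The text names the 6 genes in each Btnl2-KO against WT and WT segment comparison, every called gene of 5 lists or, in a list with none, the gene with the largest change, and the 3 genes most like each member. KO segments and interactions are given by counts. The members and lists were chosen with earlier results of these data known. Alternatives were DESeq2 1.42.0, relative log expression size factors, no filter, no fold minimum, an epithelial covariate, scaling to pan-T-cell genes, all libraries in 1 fit, and leaving out each library. A covariate for the transcript-length slope and leaving out the 3 libraries that stood apart were chosen after seeing the data.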

Additional observations from a re-analysis of the deposited data

Results flagged for a closer look

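Fasl in jejunal Btnl2-KO replicate 4 was at 166 CPM, away from the other 3 libraries of its group at 220 to 228 CPM. Its gap to the nearest of them was 0.880 of the range of the group, above Dixon's 95% critical value for 4 samples. It was the only such value in 24 groups of 4 libraries tested, where chance gives about 1 in 20. Without this library the genotype difference of Fasl in the jejunum was still not called.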

How the results depend on the processing

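Of 691 log2 fold changes recomputed under other settings, 594 kept their direction and their side of the threshold, 44 lost and 5 gained the call, and 48 changed sign. Leaving out each library in turn gave 658 values, of which 585 were unchanged in this sense. No paired analysis was possible because the labels do not say which libraries of different segments share a pool of mice. The cause of the changes was not tested.

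The member calls of the WT jejunum against the duodenum (1) became 2 with pan-T scaling, 0 in the fit of all libraries, 0 with the length-slope covariate, and 1 to 2 when 1 library was left out. Those of the WT ileum against the jejunum (2) became 1 with the epithelial covariate (Nkg7 in place of Prf1 and Fasl), 1 in the fit of all libraries, 0 with the slope covariate, and 0 to 2 when 1 library was left out, with 0 without ileal WT replicate 2. In KO mice the ileum against the duodenum (0) gave 1 with the epithelial covariate.

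The epithelial covariate turned Gzmb to 0.029 in the duodenum, Fasl to -0.066 in the jejunum, and Gzma to -0.36 and Nkg7 to -0.31 in the ileum (KO against WT), Nkg7 to 0.053 and Il2rb to 0.066 in the WT ileum against the duodenum, and Gzmb to 0.21 in the WT ileum against the jejunum. Pan-T scaling, which moved the median of all genes by 0.14, -0.34, and -0.20 in the duodenum, jejunum, and ileum, turned Gzma to 0.013, Gzmb to 0.070, and Prf1 to 0.015 in the duodenum, Gzmk to -0.35, Fasl to -0.37, and Nkg7 to -0.11 in the jejunum, and Gzmb to -0.050 in the ileum (KO against WT), and Nkg7 to 0.052 in the WT ileum against the duodenum. Jejunal Fasl (KO against WT) was at -0.032 with no filter, -0.021 in the fit of all libraries, and -0.12 without the 3 libraries that stood apart.

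With the slope covariate, KO against WT gave Gzmk -0.22 and Fasl -0.025 in the jejunum and Gzmk 0.16 and Fasl -0.16 in the ileum. The WT jejunum against the duodenum gave Gzmb -0.57, Gzmk -0.90, Fasl -0.65, Ctsc -0.12, Prdm1 -0.12, Stat4 -0.29, Stat5b -0.061, Stx11 -0.21, and Serpinb6a 0.37. The WT ileum against the jejunum gave Gzmb 1.51, Gzmk 0.75, Prf1 0.61, Fasl 0.64, Ahr 0.30, Ctsc 0.056, Il2rb 1.45, Prdm1 1.16, Stat4 0.52, Stat5a 0.14, Stat5b 0.27, Stx11 0.40, Syt7 -0.89, Tbx21 0.69, Tnfsf10 0.30, Unc13d 0.56, and Gzmm 1.15.

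Leaving out 1 library turned signs in these ranges. KO against WT gave Gzmb -0.15 to 0.081 and Prf1 -0.23 to 0.014 in the duodenum, Gzmb -0.24 to 0.082, Gzmk -0.061 to 0.23, Fasl -0.064 to 0.086, and Gzmc -0.29 to 0.13 in the jejunum, and Gzmb -0.18 to 0.36, Gzmk -0.36 to 0.15, and Fasl -0.038 to 0.37 in the ileum. The WT ileum against the duodenum gave Prf1 -0.10 to 0.22 and Nkg7 -0.19 to 0.047.

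Calls over all genes moved more than those of the members. DESeq2 called 5, 0, and 227 genes in KO against WT (duodenum, jejunum, ileum), 570 in the WT ileum against the duodenum, and 57, 494, and 3 between KO segments. With the slope covariate 0 genes were called in the WT jejunum against the duodenum and 11 in the WT ileum against the jejunum. Single-cell results have no replicate, and 15 of 15 pairs stayed positive in each alternative.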
